A study of Mus musculus with 96 samples.

Results

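Dusp1, Dusp2, Dusp4, Dusp5, Dusp6, Dusp14 and Dusp16 encode dual specificity phosphatases that act on MAP kinases or on the kinases above them. The 7 genes were picked by symbol out of the 23481 gene symbols in the count table, and each of the 7 has a row. They were followed in bone marrow-derived macrophages, which are macrophages grown in culture from marrow, here from male wild-type C57BL/6 mice 8 weeks old in conditioned medium that supplies MCSF. In 10 groups, labelled BrefA, Tunicamycin, Halofuginone, Torin, tBHQ, Dexa, pGE2, ZVAD, Caspase-1 and Baflo, cells got that small molecule 30 min before LPS (lipopolysaccharide, part of the outer membrane of many bacteria) and were lysed 4 h after LPS. The DMSO group got this solvent in place of a compound and the same LPS, and the NoStim group got no LPS and has no stated solvent. Each of the 12 groups has 8 wells, 4 on each of 2 plates, and no group received a compound without LPS. No dose of a compound is given in the sources used here. Wells of the NoStim group lie in rows A to D and wells with LPS in rows E to H, so an effect of LPS and an effect of the row cannot be told apart. The labels do not say whether the wells were separate cultures, so p-values measure the spread between wells, which may be technical.

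MAP kinases relay signals from receptors for bacterial products, growth factors and stress, and they are active only while a threonine and a tyrosine in their activation loop both carry a phosphate. Dual specificity phosphatases remove both phosphates and so end the signal. Many of their genes are themselves switched on by MAP kinase signalling, which makes them feedback inhibitors. Dusp1, Dusp2, Dusp4 and Dusp5 proteins sit mainly in the nucleus. Dusp1 prefers p38 and JNK and limits cytokine output in macrophages, Dusp2 is found mostly in blood cells, Dusp4 acts on ERK, JNK and p38, and Dusp5 acts on ERK. Dusp6 protein works in the cytoplasm on ERK. Dusp16 acts on JNK and p38. Dusp14 is a small atypical member without the kinase binding domain of the others and is known in T cells for acting on TAB1, a partner of the kinase TAK1.

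The 250 bases before the annotated starts of Dusp1, Dusp14, Dusp2 and Dusp16 are shown because these 4 genes carry the changes with enough counts to be tested. Capitals mark the full cyclic AMP response element TGACGTCA and its core TGACG, on either strand. The sequences are RefSeq's, from the GRCm38.p6 assembly (mm10), 5′ to 3′ on the strand of the gene. Of the 7 members, 6 matched an entry of that promoter table, and Dusp4 is named only.
Dusp1 (chr17:26508473-26508722, minus strand): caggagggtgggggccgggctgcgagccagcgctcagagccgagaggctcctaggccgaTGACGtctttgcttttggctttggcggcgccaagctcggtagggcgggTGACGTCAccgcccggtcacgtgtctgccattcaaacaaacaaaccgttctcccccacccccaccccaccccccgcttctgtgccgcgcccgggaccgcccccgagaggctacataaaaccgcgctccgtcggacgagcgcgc
Dusp14 (chr11:84068358-84068607, minus strand): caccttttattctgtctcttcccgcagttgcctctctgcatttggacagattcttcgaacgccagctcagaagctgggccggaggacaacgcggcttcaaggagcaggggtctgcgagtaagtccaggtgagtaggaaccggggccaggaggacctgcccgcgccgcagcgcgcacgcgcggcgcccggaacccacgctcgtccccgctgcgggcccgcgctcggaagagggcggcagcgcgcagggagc
Dusp2 (chr2:127335909-127336158, plus strand): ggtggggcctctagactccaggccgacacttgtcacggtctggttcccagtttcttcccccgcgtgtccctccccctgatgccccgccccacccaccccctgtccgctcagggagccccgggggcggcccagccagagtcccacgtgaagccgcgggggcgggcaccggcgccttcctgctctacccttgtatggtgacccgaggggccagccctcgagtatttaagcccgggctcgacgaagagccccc
Dusp16 (chr6:134792629-134792878, minus strand): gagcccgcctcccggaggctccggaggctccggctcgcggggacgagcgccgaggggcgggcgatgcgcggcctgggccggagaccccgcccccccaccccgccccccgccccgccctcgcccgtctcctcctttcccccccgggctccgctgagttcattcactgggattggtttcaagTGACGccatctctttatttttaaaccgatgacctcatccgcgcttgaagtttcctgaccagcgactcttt

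Both strands were searched for 7 motifs over 300 bases, 250 before and 50 after each start, in the members and in all 32851 promoters of the table. Dusp1 holds TGACGTCA at positions -143 to -136 from its start, a word present in 1.79% of all promoters, and a separate TGACG at -191 to -187. TGACG, which is also the first part of TGACGTCA, occurs in 20.8% of all promoters and in Dusp16 at -70 to -66, in Dusp5 at -55 to -51, and in Dusp2 only past the start, at 6 to 10. Dusp5 holds the CArG box, the sequence bound by serum response factor, at -82 to -73 and again at -72 to -63, and 1.63% of all promoters hold it at least in 1 place. The glucocorticoid element core ACANNNTGT stands at -102 to -94 of Dusp6 and in 6.85% of all promoters, and is not in the Dusp1 window. The AP-1 site TGANTCA (7.81% of all promoters), the TATA box TATAAA (13.6%) and the kappa B consensus (4.51%) have no match in the 6 windows, and Dusp14 has no match to any of the 7 motifs. A match is a description of the letters, and no match says only that the letters are not in this window. In RefSeq Dusp1 spans 26505591 to 26508472 of chromosome 17, Dusp2 127336159 to 127338377 of chromosome 2, Dusp4 34807610 to 34819894 of chromosome 8, Dusp5 53529145 to 53541809 of chromosome 19 and Dusp6 99263231 to 99267489 of chromosome 10. The spans of Dusp14 (chromosome 11, 84048033 to 84069256) and Dusp16 (chromosome 6, 134715468 to 134807063) reach further upstream than the starts used here, so each has another annotated start.

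Libraries held 80196 to 379198 counts and 5939 to 10555 genes with a count, and the ribosomal RNA precursor Rn45s took 6.573% to 49.13% of a library. The macrophage label was checked against 10 marker genes fixed with the design: 9 had counts and 8 passed the filter on low counts, with a summed level of 1790 to 4820 CPM (counts in 1000000) in every library, and Adgre1 was at 0 while its older symbol Emr1 had counts. None of the listed markers of T cells, B cells, neutrophils, dendritic cells, fibroblasts, erythroid cells or mast cells passed that filter. Not passing is not absence: Xcr1, listed for dendritic cells, had 507 counts and was at 0 in 4 libraries. Lck, listed for T cells, had 129 counts. The library Tunicamycin plate 2 well F stood apart from its group. Its deviation from the plate mean had r = -0.0423 across genes with the mean Tunicamycin profile of plate 1. The median r of libraries with their own group on the other plate was 0.601. The closest group of this library was NoStim (r = 0.361), and the reason was not tested. Of the 14 comparisons of a member between Tunicamycin and DMSO or NoStim wells, 14 had the same call without it, and values that it moved are given in both forms.

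Levels below are CPM of the TMM-scaled library size. Counts come from transcript 3′ ends and are not per length, so levels are compared between groups and never between genes. Dusp1 had 5090 counts in the 96 libraries, Dusp2 9572 and Dusp16 1464, and each had counts in every library. Dusp14 had 302, Dusp5 255, Dusp6 218 and Dusp4 200, and these 4 were at 0 counts in 41, 16, 22 and 28 libraries. The filter on low counts kept 4963 genes, Dusp1, Dusp2, Dusp14 and Dusp16 among them. Dusp14 passed the filter of 38.76 CPM through the 8 pGE2 wells alone, with 0 other wells over it, so it had to differ between groups to be tested at all. Dusp4, Dusp5 and Dusp6 did not pass, and their folds come from a fit of all 16022 genes with a count, chosen after seeing the data.

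**Figure D1:**
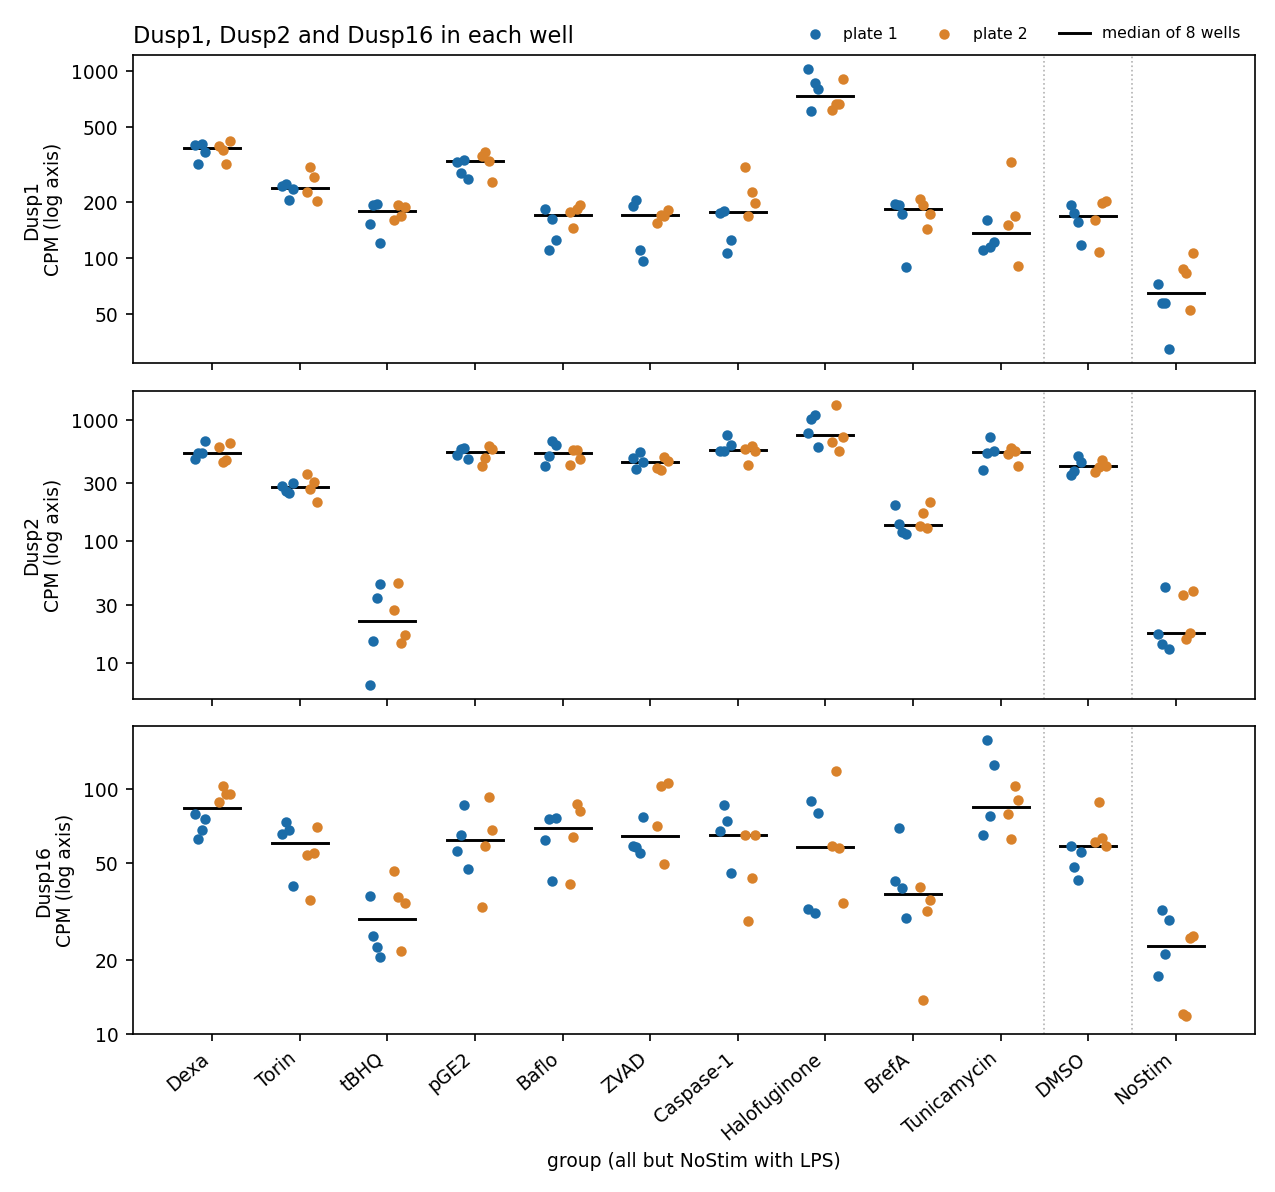
Levels of Dusp1, Dusp2 and Dusp16 in CPM (log axis) in each of the 8 wells of the 12 groups, coloured by plate, with a bar at the group median. NoStim has the lowest median for Dusp1 (65.2 CPM), and its wells overlap those of BrefA, Tunicamycin and ZVAD. The tBHQ and NoStim wells are together at the bottom for Dusp2 (medians 22.1 and 17.5 CPM). Halofuginone wells are the highest for Dusp1 (median 733 CPM).

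LPS raised Dusp1, Dusp2 and Dusp16, and Dusp2 had the largest fold. Dusp2 lay at 351 to 499 CPM in DMSO wells (median 414) and at 13.0 to 42.5 CPM in NoStim wells (median 17.5). Every DMSO well was above every NoStim well, and the mean was 17.1 times as high. Overlap of wells was read for the members only, and its share over all tested genes was not counted in any comparison. The log2 fold change was 4.02 ± 0.19 (SE, n = 8 wells per group, adjusted p = 1.286e-43), with 4.16 on plate 1 and 3.85 on plate 2. Dusp1 lay at 108 to 201 CPM in DMSO wells (median 167) and at 32.6 to 106 CPM in NoStim wells (median 65.2), again without overlap, for a log2 fold change of 1.23 ± 0.18 (adjusted p = 2.877e-09). Dusp16 lay at 42.5 to 89.0 CPM in DMSO wells (median 58.6) and at 11.9 to 32.2 CPM in NoStim wells (median 23.0), without overlap and with a log2 fold change of 1.42 ± 0.25 (adjusted p = 7.146e-07). In these lysates fewer cells of a kind and less RNA per cell cannot be told apart.

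Of the 4 tested members, 4 were higher with LPS, where 36.1% of the 4963 tested genes passed in either direction and 19.5% as higher. Dusp14 was among them on 10 counts in all DMSO wells and 2 in all NoStim wells. The ratio of its CPM was 5.85 with a 95% counting interval of 1.25 to 54.9, which like every such interval covers counting error only. Its log2 fold change of 2.02 ± 0.84 (adjusted p = 0.04731) was lost on either plate alone (adjusted p = 0.4658 and 0.1466) with RLE scaling in place of TMM (0.06028), and without replicate A, D, E, F or H (0.05292 to 0.2378). RLE scaling also moved the median fold of all genes in this comparison to -0.19, against -0.04 with TMM, and the 3 folds without overlap kept their call under it.

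Dusp6 ran the other way. It lay at 0 to 22.2 CPM in DMSO wells (median 4.03, 13 counts in all) and at 10.4 to 42.5 CPM in NoStim wells (median 20.2, 52 counts). Of the 8 DMSO wells, 7 were below the lowest NoStim well. The fit without a filter, in which 11.9% of 16022 genes passed in either direction, gave a log2 fold change of -1.63 ± 0.48 (adjusted p = 0.008072). Without replicate E it was -1.35 (adjusted p = 0.06243), and neither plate alone passed. Dusp4 had a log2 fold of 0.28 ± 0.64 (adjusted p = 0.9732) and Dusp5 one of 0.54 ± 0.52 (adjusted p = 0.5938), from 11 and 20 counts in DMSO wells and 11 and 17 in NoStim wells.

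Against DMSO, Dusp1 was higher with Dexa, Torin, pGE2 and Halofuginone, Dusp2 was lower with tBHQ, BrefA and Torin, and Dusp14 was higher with pGE2. All compound comparisons share the same 8 DMSO wells. Among the 4 tested members, 1 was higher with Dexa, where 3.57% of all tested genes passed in either direction and 1.95% as higher. With pGE2 2 were higher, where 11.2% passed and 5.2% as higher. Of these 2, Dusp14 was tested only because the pGE2 wells passed the filter, so this count cannot be read against those shares. With Torin 1 was higher and 1 lower, where 16.7% passed, 9.61% as higher and 7.11% as lower. With Halofuginone 2 were higher, where 40.3% passed and 15.3% as higher. With tBHQ 2 were lower, where 36.4% passed and 19.1% as lower, and with BrefA 2 were lower, where 17.3% passed and 9.25% as lower. Caspase-1 had 1 higher, where 2.9% passed and 1.39% as higher, and Tunicamycin had 1 higher, where 4.37% passed and 2.8% as higher. Baflo and ZVAD had 0 of 4, and the share of all tested genes was 0% in both, although 373 and 176 genes had an unadjusted p under 0.05. In the Baflo comparison the fit without a filter called 3 genes and the fit of the compared groups alone 8.

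**Figure D2:**
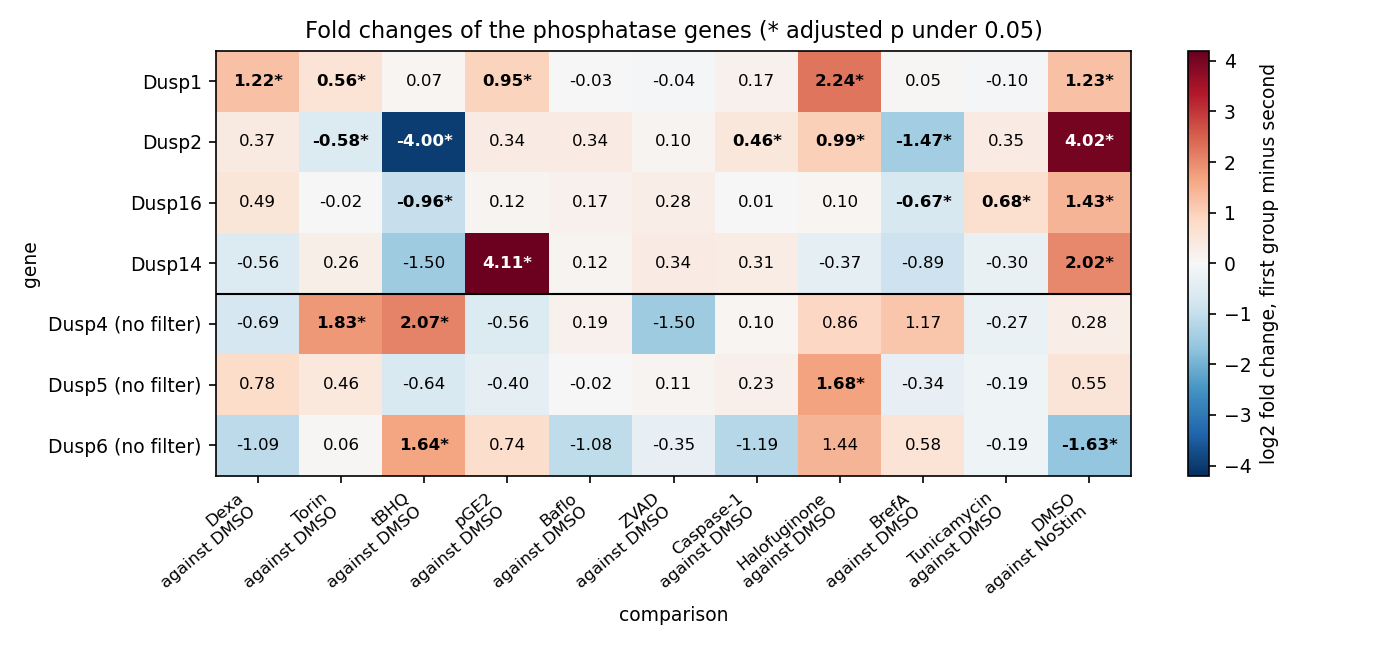
Log2 fold changes of the 7 members (rows) in the 10 compound comparisons against DMSO and in DMSO against NoStim (columns), with a star where the adjusted p was under 0.05. Dusp4, Dusp5 and Dusp6 come from the fit without a filter. The strongest cells are Dusp14 with pGE2 (4.11), Dusp2 with LPS (4.02) and Dusp2 with tBHQ (-4.00).

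Dusp1 was raised by 4 of the 10 compounds, and in each of the 4 every well was above every DMSO well. How many of all tested genes were without overlap in these comparisons was not counted. Halofuginone wells lay at 615 to 1024.5 CPM (median 733), against 108 to 201 CPM in DMSO wells (median 167), and the log2 fold change was 2.24 ± 0.16 (adjusted p = 4.607e-25). The fold was 2.40 on plate 1 and 2.10 on plate 2. Dexa wells lay at 318 to 424 CPM (median 386), with a log2 fold change of 1.22 ± 0.16 (adjusted p = 3.461e-10) and 1.25 and 1.18 on the plates. The pGE2 wells lay at 256 to 371 CPM (median 328), with a log2 fold change of 0.95 ± 0.16 (adjusted p = 5.079e-07) and 0.94 and 0.96 on the plates. Torin wells lay at 202 to 305 CPM (median 238), with a log2 fold change of 0.56 ± 0.16 (adjusted p = 0.007645). The Torin change had adjusted p = 0.07513 without replicate F (log2 0.46), and 0.1261 and 0.1278 on the plates alone.

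For the other 6 compounds Dusp1 was not past the threshold against DMSO. The tBHQ wells lay at 120 to 194 CPM (median 178), with a log2 fold of 0.07 ± 0.17 against DMSO (adjusted p = 0.7945), and BrefA wells at 89.1 to 206 CPM (median 182), with 0.05 ± 0.17 (adjusted p = 0.8879). In Tunicamycin wells the range was 90.4 to 327 CPM (median 136), its top being the library that stood apart, and the fold of -0.10 ± 0.17 (adjusted p = 0.8104) was -0.31 ± 0.17 (adjusted p = 0.2987) without it. Against NoStim, Dusp1 was higher with all 10 compounds, by log2 1.13 (Tunicamycin, or 0.92 without the library that stood apart, adjusted p = 6.805e-06) to 3.47 (Halofuginone), in comparisons where 8.3% of all tested genes passed with tBHQ, 34% with Baflo, 34.2% with pGE2, 35.6% with Dexa and with Caspase-1, 36.3% with Tunicamycin, 36.9% with ZVAD, 37.3% with BrefA, 40.4% with Torin and 54.2% with Halofuginone.

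By group mean, Dusp1 ran Halofuginone (769 CPM), Dexa (377), pGE2 (315), Torin (242), Caspase-1 (185), tBHQ (170.4), BrefA (170.1), DMSO (163), Baflo (160), ZVAD (159), Tunicamycin (155, or 131 without the library that stood apart) and NoStim (68.7). Of the 11 pairs of neighbours in that order, 3 passed the test: Halofuginone was above Dexa by log2 1.02 ± 0.15 (adjusted p = 8.405e-09; 40.4% of all tested genes passed), Torin above Caspase-1 by 0.40 (adjusted p = 0.04853; 29.7% passed), and Tunicamycin above NoStim by 1.13 (adjusted p = 4.767e-08). Dexa and pGE2 were not told apart (0.27 ± 0.15, adjusted p = 0.246; 13.3% passed), nor were pGE2 and Torin (0.38 ± 0.15, adjusted p = 0.05463; 24.4% passed). In the fit without that Tunicamycin library pGE2 was above Torin (0.39 ± 0.15, adjusted p = 0.03897), which made 4 passing pairs. The 7 groups between Caspase-1 and Tunicamycin gave no passing pair of neighbours.

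Halofuginone libraries stood apart in other measures that moved with these folds. They held 80196 to 136526 counts, against 201162 to 323049 in DMSO libraries, and Rn45s took 44.7% ± 3.20 of them (SD, n = 8), against 19.4% ± 4.64 in DMSO libraries. Their TMM factors were 0.629 to 0.754, against 0.916 to 1.10 in DMSO libraries. Before any scaling Dusp1 had 418 counts in Halofuginone libraries and 334 in DMSO libraries, so its raw count was higher too. Dusp2, also called higher with Halofuginone, had 455 raw counts in Halofuginone libraries and 879 in DMSO libraries, so its raw count ran the other way and its call rests on the scaling to library size. The Rn45s share was 39.0% to 49.1% in Halofuginone libraries, and the highest share in any other library was 30.9% (tBHQ). With no overlap in that share, a fit with it as a covariate cannot separate Rn45s from Halofuginone, here or below. With the Rn45s share as a covariate the log2 fold of Dusp1 was 2.26. The same covariate left 16.5% of all tested genes called with Halofuginone, and the part of depth and Rn45s in these folds was not tested further.

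Dusp2 was lower than in DMSO wells with tBHQ, BrefA and Torin, and higher with Halofuginone and Caspase-1. With tBHQ it lay at 6.65 to 45.5 CPM (median 22.1, 55 counts in all), against 351 to 499 CPM in DMSO wells (median 414). Every tBHQ well was below every DMSO well, and the log2 fold change was -4.00 ± 0.19 (adjusted p = 8.335e-42), with -3.96 on plate 1 and -4.01 on plate 2. RLE scaling moved the median fold of all genes with tBHQ to 0.19, against 0.04 with TMM, and no call of a member changed under it. Its mean with tBHQ and LPS was 25.6 ± 14.6 CPM, against 24.5 ± 12.4 CPM in NoStim wells (SD, n = 8 each). The log2 difference between these groups was 0.02 ± 0.27 (adjusted p = 0.975), in a comparison where 8.3% of all tested genes passed. BrefA wells lay at 115 to 211 CPM (median 136), also all below DMSO wells, with a log2 fold change of -1.47 ± 0.15 (adjusted p = 7.224e-16) and -1.58 and -1.37 on the plates. BrefA wells stayed above NoStim wells by log2 2.56 ± 0.20.

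Torin wells held 211 to 355 CPM of Dusp2 (median 278), of which 7 of 8 were below the lowest DMSO well. The log2 fold change was -0.58 ± 0.14 (adjusted p = 0.001044), and on plate 2 alone its adjusted p was 0.09221. Halofuginone wells held 551 to 1328.9 CPM (median 752), all above DMSO wells, with a log2 fold change of 0.995 ± 0.143 (adjusted p = 2.579e-09) and 1.06 and 0.95 on the plates, on fewer raw counts than in DMSO libraries. With the Rn45s share as a covariate that fold was 1.77. Caspase-1 wells held 425 to 741 CPM (median 564), with 7 of 8 above the highest DMSO well and a log2 fold change of 0.46 ± 0.13 (adjusted p = 0.03552). That call was lost on each plate alone, with same-named wells summed (adjusted p = 0.06867) and without any of the replicates E to H. Dexa (0.37 ± 0.13, adjusted p = 0.117), Tunicamycin (0.35 ± 0.13, adjusted p = 0.1199) and pGE2 (0.34 ± 0.13, adjusted p = 0.09176) had folds that did not pass, and the Tunicamycin fold was 0.32 (adjusted p = 0.1612) without the library that stood apart. In fits of the compared groups alone Dexa and pGE2 passed (adjusted p = 0.02321 and 0.00923). The pGE2 fold also passed with plate and well as a block (adjusted p = 0.04692), but not with same-named wells summed (adjusted p = 0.1484).

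The order of Dusp2 means was Halofuginone (843 CPM), Caspase-1 (578), Dexa (544), Tunicamycin (534), Baflo (529), pGE2 (528), ZVAD (450), DMSO (418), Torin (281), BrefA (152), tBHQ (25.6) and NoStim (24.5). Neighbours differed at 4 of 11 places. Halofuginone was above Caspase-1 (log2 0.53 ± 0.14, adjusted p = 0.0008541, where 47.2% of all tested genes passed), DMSO above Torin (0.58), Torin above BrefA (0.89 ± 0.16, adjusted p = 1.475e-06, where 23.5% passed) and BrefA above tBHQ (2.53 ± 0.21, adjusted p = 2.016e-21, where 36.4% passed). Against NoStim, Dusp2 was higher with 9 of the 10 compounds, by log2 2.56 to 5.02, and not with tBHQ. The shares of all genes that passed in these comparisons are those given for Dusp1.

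Dusp16 was lower with tBHQ and BrefA and higher with Tunicamycin. With tBHQ it lay at 20.6 to 46.5 CPM (median 29.7), against 42.5 to 89.0 CPM in DMSO wells (median 58.6), a log2 fold change of -0.96 ± 0.24 (adjusted p = 0.0006634) with -0.91 and -0.97 on the plates. Of the 8 tBHQ wells, 7 were below the lowest DMSO well. Against NoStim wells the tBHQ wells had a log2 difference of 0.46 ± 0.28 (adjusted p = 0.3843), and the other 9 compounds were higher than NoStim by 0.75 to 2.10. BrefA wells lay at 13.8 to 69.4 CPM (median 37.4), with 7 of 8 below the lowest DMSO well and a log2 fold change of -0.67 ± 0.24 (adjusted p = 0.03222). It was -0.23 on plate 1 and -1.12 on plate 2, and the call was lost without any of the replicates E to H (adjusted p 0.07685 to 0.1674). Tunicamycin wells lay at 62.5 to 159 CPM (median 84.8), with 4 of 8 above the highest DMSO well and a log2 fold change of 0.68 ± 0.20 (adjusted p = 0.03553). It was 1.04 on plate 1 and 0.31 on plate 2, and 0.74 (adjusted p = 0.0184) without the library that stood apart. The call was lost without replicate F, G or H (adjusted p 0.09741 to 0.2133), with no filter (0.1126), with same-named wells summed (0.0551) and with the compared groups alone (0.0839). Leaving out that library and 2 more taken from an earlier analysis of these data, Tunicamycin plate 1 well H and BrefA plate 2 well H, gave folds of 0.66 with Tunicamycin (adjusted p = 0.0722) and -0.65 with BrefA (adjusted p = 0.05032). The BrefA well had r = 0.427 with its own group, which was also its closest, and 6 wells kept in that fit had a lower r with theirs.

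Among group means of Dusp16, from Tunicamycin (95.4 CPM) through DMSO (59.6) to tBHQ (30.5) and NoStim (21.7), 1 of 11 neighbouring pairs passed: Torin was above BrefA by log2 0.65 ± 0.24 (adjusted p = 0.03954), and 0 pairs passed under RLE scaling or on either plate alone. Dexa wells had the second highest mean (83.7 CPM), with a log2 fold of 0.49 ± 0.21 against DMSO (adjusted p = 0.2382). Halofuginone wells, with 35 counts in all, lay at 31.2 to 119 CPM. A Gm36328 transcript overlaps Dusp16 on the opposite strand, and the sources used here do not say whether the counting used strand. Dusp1 reaches further upstream in the GENCODE annotation, to 26562128 of chromosome 17. There it overlaps Ergic1 and Gm8225 on the opposite strand and AC122252.4 and AC122252.1 on its own. Its RefSeq span stops at 26508472, short of Ergic1, which begins at 26560762.

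**Figure D3:**
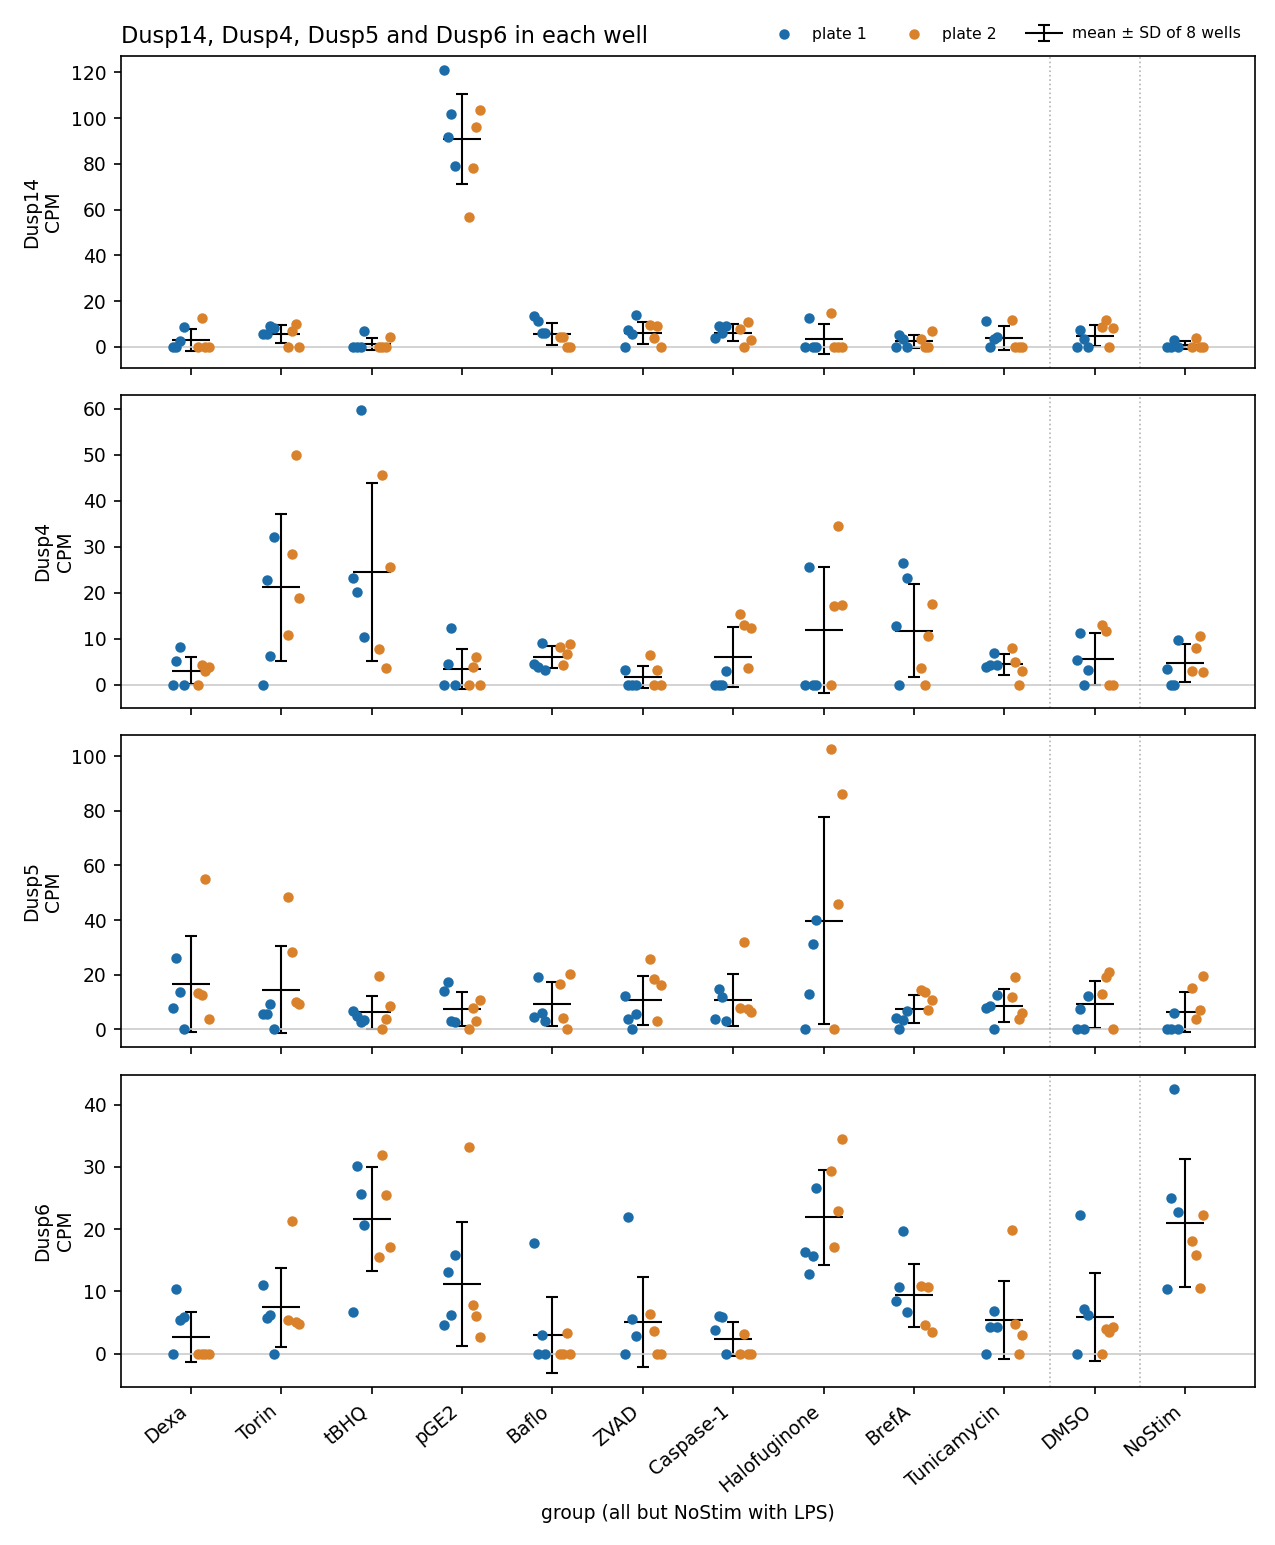
Levels of Dusp14, Dusp4, Dusp5 and Dusp6 in CPM (linear axis from 0) in each of the 8 wells of the 12 groups, coloured by plate, with the mean and SD of each group. The pGE2 wells are alone in carrying Dusp14 above 20 CPM (mean 91.0), and for Dusp6 the highest means are those of Halofuginone (21.9), tBHQ (21.6) and NoStim (20.9).

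Dusp14 was high in pGE2 wells and near the lower limit of counting elsewhere. It lay at 56.9 to 121 CPM in pGE2 wells (median 93.9, 12 to 38 counts per well and 212 in all), against 0 to 11.6 CPM in DMSO wells (median 5.48, 10 counts in all). The highest well of any other group was a Halofuginone well at 14.6 CPM, which rests on 1 count in a small library. The log2 fold change against DMSO was 4.11 ± 0.39 (adjusted p = 6.645e-17), with 4.90 on plate 1, 3.52 on plate 2 and 3.78 to 4.67 with any replicate left out. Because the pGE2 wells decided that Dusp14 was tested, this p describes a gene that had to differ. Against the 2 counts of the NoStim wells, the ratio of CPM was 111 with a 95% counting interval of 30.4 to 924.5. The mean of 91.0 ± 19.6 CPM with pGE2 stood above that of Caspase-1, next in order, by log2 3.80 ± 0.36 (19.7% of all tested genes passed between these groups), and this was the only 1 of 11 neighbouring pairs that passed. With tBHQ the log2 fold was -1.50 ± 0.81 (adjusted p = 0.1403).

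Dusp4, Dusp5 and Dusp6 had few counts, and their values are given with the counts behind them. Dusp4 lay at 0 to 50.0 CPM in Torin wells (median 20.7, 34 counts) and at 3.63 to 59.8 CPM in tBHQ wells (median 21.7, 54 counts), against 0 to 13.0 CPM in DMSO wells (median 4.21, 11 counts). In the fit without a filter the log2 fold change was 1.83 ± 0.53 with Torin (adjusted p = 0.01516), where 4.73% of all genes passed, and 2.07 ± 0.49 with tBHQ (adjusted p = 0.0004979), where 12.8% passed. In each of these groups 5 of 8 wells were above every DMSO well. Without replicate G the folds were 1.33 with Torin (adjusted p = 0.3384) and 1.45 with tBHQ (adjusted p = 0.09956), and without replicate H the Torin fold was 1.39 (adjusted p = 0.2654).

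Dusp5 was highest with Halofuginone, at 0 to 103 CPM (median 35.6, 22 counts), against 0 to 21.0 CPM in DMSO wells (median 9.90, 20 counts). The groups overlapped, with 5 of 8 Halofuginone wells above every DMSO well. The fold without a filter was log2 1.68 ± 0.52 (adjusted p = 0.01143), where 14.6% of all genes passed. It fell short of the threshold without replicate E (1.43, adjusted p = 0.1127), without replicate H (1.41, adjusted p = 0.1369) and on either plate alone.

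Dusp6 lay near its NoStim level in tBHQ wells. It lay at 6.65 to 31.8 CPM with tBHQ (median 23.0, 45 counts), against 0 to 22.2 CPM in DMSO wells (median 4.03, 13 counts) and 10.4 to 42.5 CPM in NoStim wells (median 20.2, 52 counts). The log2 fold against DMSO was 1.64 ± 0.49 (adjusted p = 0.00921), and 1.003 on plate 1 (adjusted p = 0.4557). Without replicate G it was 1.48 (adjusted p = 0.09486). Against NoStim it was 0.01 ± 0.38 (adjusted p = 1.0), which does not show the levels to be alike, where 2.5% of all genes passed. Halofuginone wells lay at 12.8 to 34.4 CPM (median 20.002) on 12 counts, with a log2 fold of 1.44 ± 0.64 against DMSO (adjusted p = 0.1274) that passed under RLE scaling (1.79, adjusted p = 0.04604) and without replicate F (2.20, adjusted p = 0.04423). Dusp6 was lower than in NoStim wells with Dexa, Torin, Baflo, ZVAD, Caspase-1 and Tunicamycin, by log2 -1.57 (Torin) to -2.83 (Caspase-1), and with Tunicamycin by -1.82, or -1.91 without the library that stood apart (adjusted p = 0.00251). These were comparisons where 12.2% (Dexa), 13.8% (Torin), 12.3% (Baflo), 12.6% (ZVAD), 12.7% (Caspase-1) and 12.4% (Tunicamycin) of all genes passed in the fit without a filter.

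The members were also set against each other over the 12 group means. As a description, Dusp2 and Dusp16 had r = 0.89 across the means of log2 CPM, Dusp1 and Dusp5 had 0.834, and Dusp6 ran against Dusp16 (-0.718) and Dusp2 (-0.623). The groups share plates and differ in depth, so these values carry no p. Between plates a member's own group means had r = 0.999 for Dusp2, 0.986 for Dusp1, 0.949 for Dusp14, 0.874 for Dusp6 and 0.837 for Dusp16, but 0.571 for Dusp4 and 0.481 for Dusp5. The value of Dusp14 rests largely on its pGE2 means, which alone stood clear of the lower limit of counting.

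The tested genes most like each member were found by Pearson r over the 12 group means of log2 CPM. Dusp14 was most like Procr (r = 0.984; 0.956 and 0.965 on the plates), Flrt3 (0.947) and Gja1 (0.944). These r rest largely on the pGE2 mean, since Dusp14 was near the lower limit of counting in the other groups. Among those most like Dusp2 were Parp14 (0.961) and Gbp3 (0.956), and Dusp1 was most like Ik (0.901), Med13 (0.887) and Hipk1 (0.886). Dusp16 was most like Dmtf1 (0.95), Mb21d1 (0.924) and Gramd1a (0.917). Among the genes most like Dusp6 were Mknk2 (0.92) and Rgs2 (0.901), of which Mknk2 encodes a kinase activated by MAP kinases and Rgs2 a G protein regulator. Dusp5 was most like Epb4.1l2 (0.959), Ercc3 (0.931) and C5ar1 (0.929), and Dusp4 most like Flcn (0.886), Fam105b (0.878) and Impact (0.87).

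Other phosphatases of the family and of MAP kinases were mostly lower or not past the threshold with LPS. Of 25 listed genes 7 were tested, and with LPS 1 was higher and 3 lower, where 36.1% of all tested genes passed. The lower genes were Ptpn7, a tyrosine phosphatase of lymphoid cells that acts on MAP kinases (-1.10 ± 0.26, adjusted p = 0.0002236), Dusp3, a small atypical member (-0.97 ± 0.16, adjusted p = 1.429e-07), and Dusp7, a cytoplasmic ERK phosphatase close to Dusp6 (-0.77 ± 0.26, adjusted p = 0.01462). Dusp7 and Dusp3 were higher with Torin (1.65 ± 0.25, adjusted p = 7.791e-08, and 0.85 ± 0.16, adjusted p = 1.835e-05) and with tBHQ (0.93 ± 0.26, adjusted p = 0.002775, and 0.84 ± 0.16, adjusted p = 5.829e-06). Neither plate alone gave the LPS call of Dusp7, and its tBHQ call was lost without replicate G (adjusted p = 0.2332). With Halofuginone 2 of 7 were lower, Styx, a catalytically inactive relative (-2.77 ± 0.52), and Ppm1b (-1.24 ± 0.43), where 40.3% of all tested genes passed. The Ppm1b call was lost with the Rn45s share as a covariate (-0.78, adjusted p = 0.3737). With Dexa and pGE2 0 of 7 passed, where 3.57% and 11.2% of all tested genes passed.

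Few genes of the MAP kinases themselves passed the test. Of 5 tested genes out of 14, Mapk6 was higher (0.68 ± 0.22, adjusted p = 0.01152) and Mapk3, which encodes an ERK, lower with LPS (-0.66 ± 0.25, adjusted p = 0.0262), where 36.1% of all tested genes passed. Both calls were lost on either plate alone (adjusted p 0.1084 to 0.1797), that of Mapk6 also without replicate B, E or H (0.05311 to 0.1013), and that of Mapk3 with no filter (0.1181) and without replicate C or E (0.05884 and 0.08935). With tBHQ, pGE2 and BrefA 0 of 5 passed, where 36.4%, 11.2% and 17.3% of all tested genes passed. Halofuginone raised Mapk6 (0.81 ± 0.26, adjusted p = 0.006572) and lowered Mapk14, which encodes p38 alpha (-1.55 ± 0.54, adjusted p = 0.01496). With the Rn45s share as a covariate neither passed (adjusted p = 0.245 and 0.498), nor did either on plate 2 alone (0.1765 and 0.1048). Of 16 tested upstream kinase genes and partners out of 30, LPS raised 5 and lowered 1, a share near the 36.1% of all tested genes. Map3k8, the kinase that links the LPS receptor to ERK in macrophages, rose by 2.67 ± 0.28 with LPS (adjusted p = 1.534e-15). Against DMSO it was lower with tBHQ (-2.07 ± 0.26, adjusted p = 2.954e-11), with BrefA (-2.26 ± 0.27, adjusted p = 6.473e-12) and with Halofuginone (-1.27 ± 0.34, adjusted p = 0.001227). The Halofuginone call was lost with the Rn45s share as a covariate (-0.97, adjusted p = 0.1458) and on plate 2 alone (adjusted p = 0.07074). Tab2, a partner of TAK1, rose with LPS (1.23 ± 0.14) and fell with tBHQ (-1.49 ± 0.14) and Halofuginone (-1.36 ± 0.18). The pGE2 comparison, where 11.2% of all tested genes passed, had 4 higher and 2 lower, led by Map4k4 (1.54 ± 0.17, adjusted p = 6.399e-13).

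Among kinases activated by MAP kinases, 5 of 10 were tested. With LPS, where 36.1% of all tested genes passed, 2 were higher and 2 lower, including Mapkapk2, a p38 target that stabilises cytokine messages (1.31 ± 0.16, adjusted p = 1.431e-11), and Mknk2 (-1.07 ± 0.23, adjusted p = 6.519e-05). With tBHQ, where 36.4% passed, 2 were higher and 2 lower, with Mapkapk2 at -1.16 ± 0.16 and Mknk2 at 1.38 ± 0.23. Of 19 other feedback genes of the Ras to ERK route 11 were tested. With LPS 4 were higher and 4 lower, against the same 36.1%, with Rgs2 (-2.80 ± 0.19, adjusted p = 3.178e-28) and Spry2, a Sprouty inhibitor of ERK signalling (-1.83 ± 0.33, adjusted p = 1.356e-06), among the lower. With tBHQ, against 36.4%, 4 were higher, Rgs2 (3.06 ± 0.19) and Spry2 (1.86 ± 0.33) among them, and 3 lower. Halofuginone had 6 higher and 1 lower (4 and 1 with the Rn45s covariate), against 40.3% of all tested genes, led by Rgs1 (3.38 ± 0.25) and Rgs2 (3.17 ± 0.20), and pGE2 had 2 higher and 0 lower, against 11.2%.

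**Figure D4:**
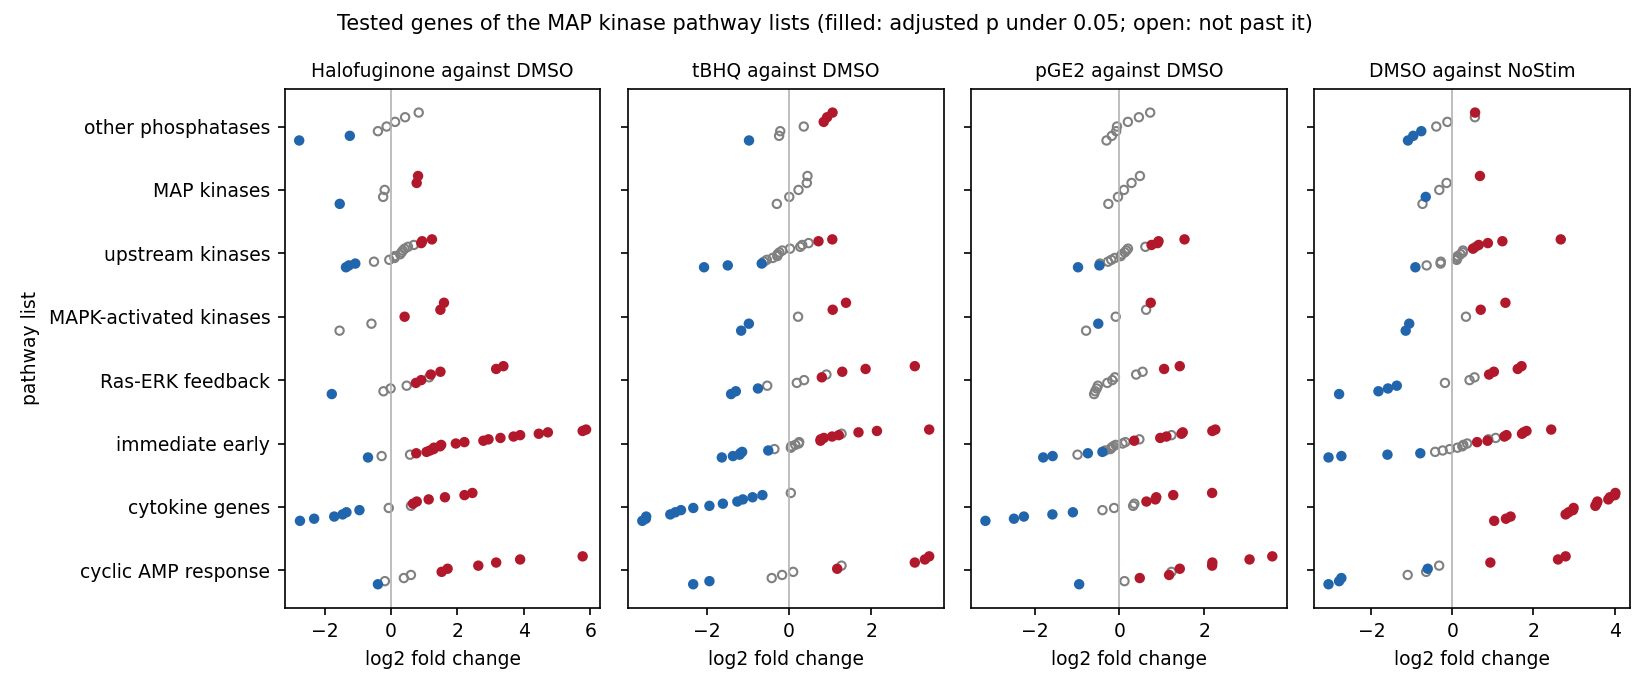
Log2 fold changes of the tested genes of each pathway list (1 point per gene) in Halofuginone, tBHQ and pGE2 against DMSO and in DMSO against NoStim, with genes past the threshold filled. The immediate early genes lie mostly above 0 with Halofuginone (median 1.95), and the cytokine genes lie above 0 with LPS (median 3.26) and below 0 with tBHQ (median -2.13).

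Immediate early genes, which ERK and other MAP kinases switch on within minutes, were mostly higher with Halofuginone. Of 28 listed genes 21 were tested, and 18 were higher and 1 lower, with a median of 1.95 against -0.195 over all tested genes, of which 40.3% passed. With the Rn45s share as a covariate 18 and 1 passed as well. Egr1 (5.88 ± 0.34, adjusted p = 9.083e-27), Nr4a1 (5.77 ± 0.49), Ier2 (4.72 ± 0.28) and Jun (4.45 ± 0.26) had the largest folds, and Dusp1, often counted among such genes, rose in the same comparison as given above. With LPS 8 were higher and 4 lower, from Maff (2.44 ± 0.50) and Ier3 (1.83 ± 0.23) to Fos (-3.06 ± 0.27). With tBHQ 8 were higher and 6 lower, with Fos at 3.41 ± 0.27 and Etv3 at -1.64 ± 0.15. With Torin 9 were higher and 1 lower, with Dexa 3 and 5, with pGE2 7 and 4, and with BrefA 3 and 4. Of all tested genes 36.1% passed with LPS, 36.4% with tBHQ, 16.7% with Torin, 3.57% with Dexa, 11.2% with pGE2 and 17.3% with BrefA.

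Cytokine and related genes listed as sensitive to loss of Dusp1 moved in different directions in different comparisons. Of 17 listed genes 14 were tested, and 14 were higher with LPS, with a median of 3.26 against -0.04 over all tested genes. With Dexa 0 were higher and 7 lower, with Il1b at -2.16 ± 0.14 and Il12b at -1.46 ± 0.17, and Tnf did not pass (-0.20 ± 0.12, adjusted p = 0.5707). With pGE2 5 were higher, with Il10 at 2.19 ± 0.23, and 5 lower, with Il12b at -3.16 ± 0.20 and Tnf at -2.26 ± 0.14. With Halofuginone 6 were higher, with Cxcl2 at 2.45 ± 0.20 and Tnf at 1.13 ± 0.13, and 6 lower, with Il6 at -2.74 ± 0.46. With tBHQ 0 were higher and 13 lower (median -2.13 against 0.04), with Il12b at -3.57 ± 0.22 and Il1b at -3.48 ± 0.15. BrefA had 6 higher and 5 lower, and Torin 2 and 4. Of all tested genes 36.1% passed with LPS, 3.57% with Dexa, 11.2% with pGE2, 40.3% with Halofuginone, 36.4% with tBHQ, 17.3% with BrefA and 16.7% with Torin. A part of Dusp1 in these folds was not tested.

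Genes of the cyclic AMP response, a second messenger that many receptors raise, formed the last list. Of 18 listed genes 10 were tested, and with pGE2 7 were higher and 1 lower, with a median of 1.33 against 0.0028 over all tested genes, of which 11.2% passed. Thbs1 (3.61 ± 0.21, adjusted p = 8.264e-33), Odc1, an enzyme of polyamine synthesis (3.07 ± 0.16, adjusted p = 6.712e-37), Fos (2.19 ± 0.29) and Il10 (2.19 ± 0.23) had the largest folds. Fos, Nr4a1, Il10 and Rgs2 stand in another of the lists as well. Halofuginone had 6 higher and 1 lower, where 40.3% of all tested genes passed, and tBHQ 4 and 2, where 36.4% passed. Tunicamycin had 3 higher and 0 lower (4.37% passed), Dexa 2 and 1 (3.57%), Torin 2 and 0 (16.7%) and BrefA 2 and 0 (17.3%). DMSO against NoStim had 3 higher and 4 lower (36.1%). Dusp14, on 2 counts with Halofuginone and 3 with tBHQ, had log2 folds against DMSO of -0.37 ± 1.07 (adjusted p = 0.8077) and -1.50 ± 0.81 (adjusted p = 0.1403). The lists were counted against the background of each comparison and were not tested as sets.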

How the data were processed

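Gene expression was measured as counts per gene symbol in 96 libraries of mouse macrophages, made by the authors from libraries of 3′ transcript ends, per the labels' protocols (SCRB-Seq, modified, with Nextera). The submitters' processing notes name BWA and mm10. The deposited counts are whole numbers that sum to a different total in each library and were used unscaled. Not given in the sources used here are the aligner's version, the annotation, strand use and any collapsing of PCR copies. PCR copies that were counted apart would not be independent molecules.

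Counts were tested with edgeR 4.0.16 (R 4.3.3) after TMM scaling and a filterByExpr filter (4963 of 23481 genes kept), using 1 model of group and plate over 96 libraries, robust quasi-likelihood F tests, two-sided, Benjamini-Hochberg adjustment over all tested genes of a comparison, threshold 0.05. Errors of fold changes are SE of the fit. Likeness used log2 CPM with a prior count of 2. All 66 pairs of groups were fitted for the order of groups, each adjusted over its tested genes. Dusp4, Dusp5 and Dusp6 were taken from the fit without a filter (16022 genes). Precision is set by counts per member, which ran from 200 to 9572.

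Alternatives tried were the compared groups alone, RLE scaling, wells left out, each plate, no plate term, a filter at 20 CPM or none, same-named wells summed, a replicate block, DESeq2 1.42.0, the Rn45s share as a covariate, and Rn45s and Lars2 left out. Added after seeing the data were the fits without 3 wells, each alternative for the 3 unfiltered members, the order of groups without Tunicamycin plate 2 well F, and the Rn45s covariate for lists. Same-named wells on the 2 plates deviated together (mean r 0.165 over 2569 genes, above other letters in 12 of 12 groups). Scripts were tested on simulated data. Figures used matplotlib 3.10.9.

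All members are named. From each list and comparison the text draws on the 4 passing genes with the largest absolute fold and the first 2 listed, and for likeness on the 3 genes with the highest r, skipping predicted genes; which of these appear was chosen after their values were seen. The members and lists were chosen with earlier results of these data known. Protein sequences were not used here, and a few genes that this rule names are not reported here.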

Additional observations from a re-analysis of the deposited data

Results flagged for a closer look

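In 12 of 84 sets of 8 wells (7 members in 12 groups) a well lay further from the others than Dixon's 95% limit for 8 values. Chance reaches that limit in about 1 of 20 sets of normally distributed values. Values from few counts are not so distributed, and the rate for them was not worked out. Each flagged well was the highest of its group. Dusp1 in Tunicamycin plate 2 well F was 326.87 CPM on 68 counts, against 167.78 CPM in the next well. It is the library whose profile was unlike its group, and the part of that in the Dusp1 value was not tested. Dusp16 in DMSO plate 2 well F was 88.965 CPM on 23 counts, against 63.127 CPM in the next well.

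The other 10 rest on 4 to 19 counts. Dusp5 stood out in Dexa plate 2 well G (55.216 CPM), tBHQ plate 2 well E (19.389 CPM) and Caspase-1 plate 2 well F (32.161 CPM). Dusp6 stood out with pGE2 (33.197 CPM, plate 2 well E), Baflo (17.751 CPM, plate 1 well E), ZVAD (21.9 CPM, plate 1 well F), BrefA (19.751 CPM, plate 1 well G), Tunicamycin (19.815 CPM, plate 2 well E), DMSO (22.231 CPM, plate 1 well F) and NoStim (42.479 CPM, plate 1 well C).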

How the results depend on the processing

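The 17 called folds of tested members had 370 alternative values, of which 330 kept their direction and call, 40 kept the direction but lost the call, and 0 changed sign. The 40 belong to Dusp1 and Dusp2 with Torin, Dusp2 with Caspase-1, Dusp14 with LPS, and Dusp16 with BrefA and with Tunicamycin; the other 11 lost no call. Folds that were never called changed sign for Dusp1 with tBHQ (-0.0093 with no filter, and -0.041 to 0.151 with a replicate left out), with BrefA (-0.068 to 0.181 with a replicate left out) and with Tunicamycin (0.097 on plate 2 alone, and -0.437 to 0.039 with a replicate left out).

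The number of members called against DMSO became 2 for Dexa with the compared groups alone. It became 1 and 0 for Torin on plates 1 and 2 alone, 4 for tBHQ with no filter or a filter at 20 CPM, and 4 for Halofuginone at 20 CPM. It became 0 for Caspase-1 with no plate term, on either plate alone, with wells summed and with the Rn45s covariate. It became 1 for BrefA with no filter, on plate 1 alone and without 3 wells, and 0 for Tunicamycin with no filter, at 20 CPM, on plate 2 alone, with wells summed, with the compared groups alone and without 3 wells. With each replicate left out in turn it was 1 to 1 for Dexa, 1 to 2 for Torin, 2 to 3 for tBHQ, 2 to 2 for pGE2 and Halofuginone, 0 to 0 for Baflo and ZVAD, 0 to 1 for Caspase-1 and Tunicamycin, 1 to 2 for BrefA, and 3 to 4 for DMSO against NoStim.

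Counts over all genes moved by over 1.5 times in 39 alternative fits, 16 of them on a single plate and 23 others, of which 12 were for Caspase-1, 7 for Tunicamycin and 4 for Baflo, Torin or Halofuginone. For Caspase-1 (144) the count ran from 3 on plate 2 alone to 307 with the compared groups alone, for Tunicamycin (217) from 5 on plate 2 alone to 371 on plate 1 alone, and for Halofuginone (2000) it was 818 with the Rn45s covariate. Without replicate G it was 549 for Torin (830). RLE scaling changed the share of calls that were higher to 38.4% in DMSO against NoStim (54.08% with TMM), to 61.85% for tBHQ (47.48%) and to 59.33% for Caspase-1 (47.92%). The cause of these moves was not tested. Of 396 counts of list genes under RLE scaling, single plates or summed wells, 57 moved, and of 2441 alternatives for 112 named list folds 96 lost the call and 0 changed sign.

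Well letters were not used to pair groups in the main fit. Same-letter pairs of compound and DMSO wells had a mean r of 0.057, with 24 of 80 pairs over 0.1. For each compound the mean was above that of other letters, from 0.02 (Halofuginone) to 0.106 (tBHQ), so a pairing is not excluded. The replicate block could not be fitted for DMSO against NoStim. It raised the Caspase-1 count of all genes to 232 and gave Dusp2 with pGE2 a call (0.35, adjusted p = 0.04692) that summed same-named wells did not (adjusted p = 0.1484), and changed no other member call. Depth limits Dusp4, Dusp5, Dusp6 and Dusp14, with 200 to 302 counts in all libraries.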
